A study of Saccharomyces cerevisiae with 16 samples.

Results

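The histone mRNAs of the yeast Saccharomyces cerevisiae were followed through a study that sequenced the RNase I footprints of 40S ribosomal subunits. The members were the 10 histone genes of the deposited gene table, chosen by name from 5818 genes. They comprise 2 genes each for the core histones H2A (HTA1, HTA2), H2B (HTB1, HTB2), H3 (HHT1, HHT2) and H4 (HHF1, HHF2), and 1 gene each for the H2A variant H2A.Z (HTZ1) and the linker histone (HHO1). The choice went by gene name and not by counts, but earlier results of these data were known when it was made.

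Histones package DNA into nucleosomes. A core particle holds pairs of H2A with H2B and of H3 with H4, so partner proteins are needed in matched amounts. In yeast the partner genes lie head to head and share a promoter, and the core histone mRNAs are made in a burst around S phase. H2A.Z replaces H2A next to many promoters.

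During initiation a 40S subunit with its factors binds near the mRNA cap, scans the leader (5′ UTR) and stops at the start codon, where the 60S subunit joins. eIF3 is a scaffold of the scanning complex, and eIF2 brings the initiator tRNA and leaves once the start codon is recognised. A 40S footprint can therefore come from a scanning, initiating or terminating subunit. Selection for a factor keeps the footprints of the subunits that still carry it.

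All strains were grown in rich medium (YPD) at 30 °C then crosslinked on ice for 1 h in 0.8% formaldehyde, and footprints of about 18 to 85 nt were kept. The unselected group held 3 libraries of 40S footprints without pulldown, from strain SY182 (TIF32-FLAG, eIF3a), strain H25 (NIP1-FLAG, eIF3c) and strain SY194 (SUI3-FLAG, eIF2β), numbered 1-1, 1-2 and 1-3. The factor-bound group held 1 library from each of the same strains after anti-FLAG pulldown, and so 1 for each factor. Factor and strain cannot be told apart, the unselected controls carry the tags too, and the spread within the factor-bound group includes differences between factors. Per gene, the table gives footprint counts in 5 areas: the 5′ UTR, the start codon, the coding region, the stop codon and the 3′ UTR. Cultures were bulk cultures, so a change in the share of cells making histone mRNA and a change in footprints per cell cannot be told apart.

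The libraries held 1595793 to 2800652 counts without selection and 3403297 to 4486412 with it. Histone footprints numbered 24654, 15910 and 18050 in unselected libraries 1-1, 1-2 and 1-3, and 31577 with eIF3a, 41155 with eIF3c and 40420 with eIF2β. They made up 0.88%, 0.997% and 0.954% of the counts without selection and 0.928%, 0.927% and 0.901% with it. The summed share of the 10 genes thus overlapped between the groups, while single members moved apart.

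In build R64 the coding regions sit on 5 chromosomes, with strand read from the systematic locus names. HTA1 (YDR225W, chromosome IV, 915530 to 915928, plus strand) and HTB1 (YDR224C, IV, 914317 to 914712, minus) are 817 nt apart. HTA2 (YBL003C, II, 235394 to 235792, minus) and HTB2 (YBL002W, II, 236492 to 236887, plus) are 699 nt apart. HHT1 (YBR010W, II, 256331 to 256741, plus) and HHF1 (YBR009C, II, 255373 to 255684, minus) are 646 nt apart, and HHT2 (YNL031C, XIV, 575640 to 576050, minus) and HHF2 (YNL030W, XIV, 576727 to 577038, plus) are 676 nt apart. All 4 pairs point away from each other. HTZ1 (YOL012C, XV, 303579 to 303983, minus) and HHO1 (YPL127C, XVI, 308828 to 309604, minus) stand alone. Coding regions on the opposite strand end 166 nt beyond HHF2 (KTR5), 265 nt beyond HTB2 (ECM15), 276 nt beyond HTA2 (UTP20) and 288 nt beyond HHT2 (SIW14). No source used here says whether counting used strand, so 3′ UTR counts of these 4 genes may hold footprints of their neighbours.

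Most 40S footprints of the histone mRNAs lay on the start codon. Summed over the 10 genes, start codons held 67.0%, 64.7% and 63.1% of histone footprints in unselected libraries 1-1 to 1-3, against 54.2% ± 2.93 (SD, n = 3) over all other genes. With selection they held 69.2%, 70.6% and 66.6%, against 61.7% ± 0.702 (SD, n = 3). Coding regions of the histones held 19.9% ± 1.67 without selection and 11.5% ± 3.25 with it, stop codons 2.53% ± 0.190 and 0.385% ± 0.111, and 3′ UTRs 4.29% ± 0.237 and 1.802% ± 0.445. Over all other genes the means moved the same way. They were 30.7% and 15.3% in coding regions, 2.24% and 0.677% at stop codons, and 3.29% and 1.45% in 3′ UTRs. The 5′ UTR share of the histones was 8.39% ± 0.366 and 17.5% ± 4.88 (SD, n = 3 throughout), beside 9.53% and 20.9% over all other genes. The factor-bound spread in the 5′ UTR comes mostly from 1 library, with 14.2% for eIF3a, 15.3% for eIF3c and 23.1% for eIF2β. The 5′ UTR share of all genes' counts was highest in that library too, at 19.0%, 18.55% and 25.06% in the same order.

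**Figure D1:**
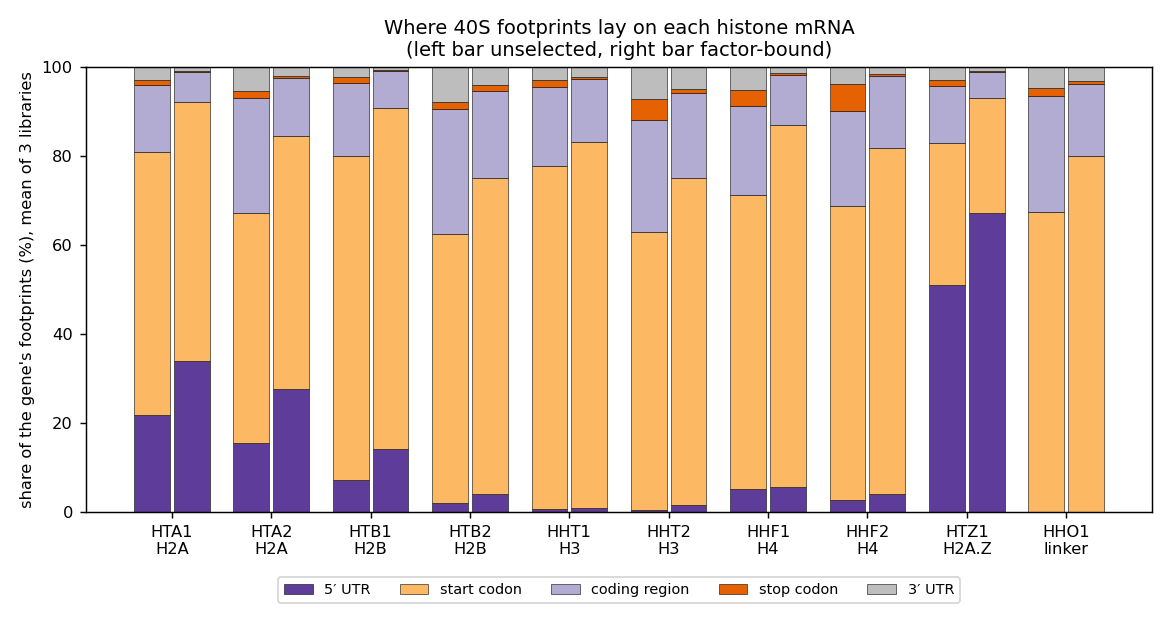
Stacked bars give the mean share (%) of a gene's own 40S footprints in the 5 areas over 3 libraries, with unselected 40S on the left and factor-bound 40S on the right of each gene. The start codon is the main area of 9 genes, while HTZ1 has 50.9% and 67.1% of its footprints in the 5′ UTR.

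Among the genes, start codon counts placed the core histones high in the transcriptome. The start codon area is 1 place per gene, so its counts are compared as CPM, the count divided by the library's total count and scaled by the same factor in every library. The sources used here do not state its width. By mean CPM of the unselected libraries the 8 core histone genes ranked from the 100th (HHT1, 1184 ± 51.1 CPM) to the 226th (HTA2, 328 ± 30.7 CPM; SD, n = 3) of 5818 genes. HHO1 (97.7 ± 21.8 CPM) ranked 551st and HTZ1 (89.7 ± 11.0 CPM) 586th, and these neighbours differed by less than their spread. Per kilobase of coding region, HHF1, HHT1, HHF2, HHT2, HTB1, HTA1 and HTB2 followed each other from 670 to 557 CPM per kb in unselected libraries, with each step smaller than the SDs of 58.4 to 144. HTA2 had 415 ± 47.0, HTZ1 87.2 ± 2.24 and HHO1 47.7 ± 4.24 CPM per kb of coding region (SD, n = 3).

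The main comparison asked which mRNAs gain or lose footprints when subunits carrying eIF3 or eIF2 are selected. The H3 genes fell at start codons relative to other mRNAs, and their H4 partners did not. HHT1, an H3 gene, had 1243, 1155 and 1155 CPM at its start codon in unselected libraries 1-1, 1-2 and 1-3. It had 854 CPM with eIF3a, 824 CPM with eIF3c and 775 CPM with eIF2β. All 3 factor-bound values lay below all 3 unselected values. HHT2, which encodes the same H3 protein from another chromosome, had 651, 647 and 648 CPM without selection and 410, 400 and 444 CPM with it. Its groups did not overlap either. The SD of its unselected values was 2.14 CPM (n = 3), from 1823, 1032 and 1226 counts. That is below the counting error of such counts, so it does not measure how well the libraries repeat.

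Fitted across 3868 genes with edgeR's quasi-likelihood test and Benjamini-Hochberg adjustment, the log2 fold at start codons was −0.81 for HHT1 (SE 0.13, adjusted p = 0.0108) and −0.90 for HHT2 (SE 0.15, adjusted p = 0.0122). These folds are relative to the median gene at start codons, whose own CPM was 0.29 higher on the log2 scale with selection. The 2 H3 genes were the only histones that passed, 2 of 10 lower and 0 of 10 higher, where 5.12% of all genes tested were lower and 1.34% higher. Since footprints could be divided between near-identical copies, the 2 copies were also summed, and the H3 sum fell by 0.84 (SE 0.13, adjusted p = 0.00827). The call for HHT1 alone was lost without unselected 1-1 (adjusted p = 0.0541) or without the eIF3c-bound library (0.0515). That for HHT2 was lost without unselected 1-2 (0.0527) or 1-3 (0.0528) and without the eIF3a-bound (0.0514) or eIF3c-bound library (0.0608). The summed H3 count passed with each of the 6 libraries left out, at log2 folds from −0.87 to −0.81. Scaled to the counts of all areas, the folds kept their sign at −0.29 for HHT1 and −0.38 for HHT2 and did not pass (adjusted p = 0.167 and 0.105).

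Of the H4 genes, HHF1 went the other way in CPM. At its start codon HHF1 had 679, 747 and 664 CPM in unselected libraries, against 1206 CPM with eIF3a, 1083 CPM with eIF3c and 891 CPM with eIF2β. Its groups did not overlap. Against the median gene its log2 fold was 0.33 (SE 0.16, edgeR adjusted p = 0.229), and 0.33 in a fit that pairs libraries of the same strain by a replicate block, where it passed (adjusted p = 0.0467). In CPM at start codons 4 of 10 histones (HHF1, HTA1, HTA2 and HTZ1) lay higher in all 3 factor-bound libraries than in any unselected one, as did 26.7% of all genes tested, and 2 of 10, both H3 genes, lay lower in all, as did 9.59%. HHF2 had 527, 678 and 689 CPM without selection and 784, 735 and 643 CPM with it, and these groups overlapped. The fold of the H4 sum was 0.14 (SE 0.16, adjusted p = 0.612).

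**Figure D2:**
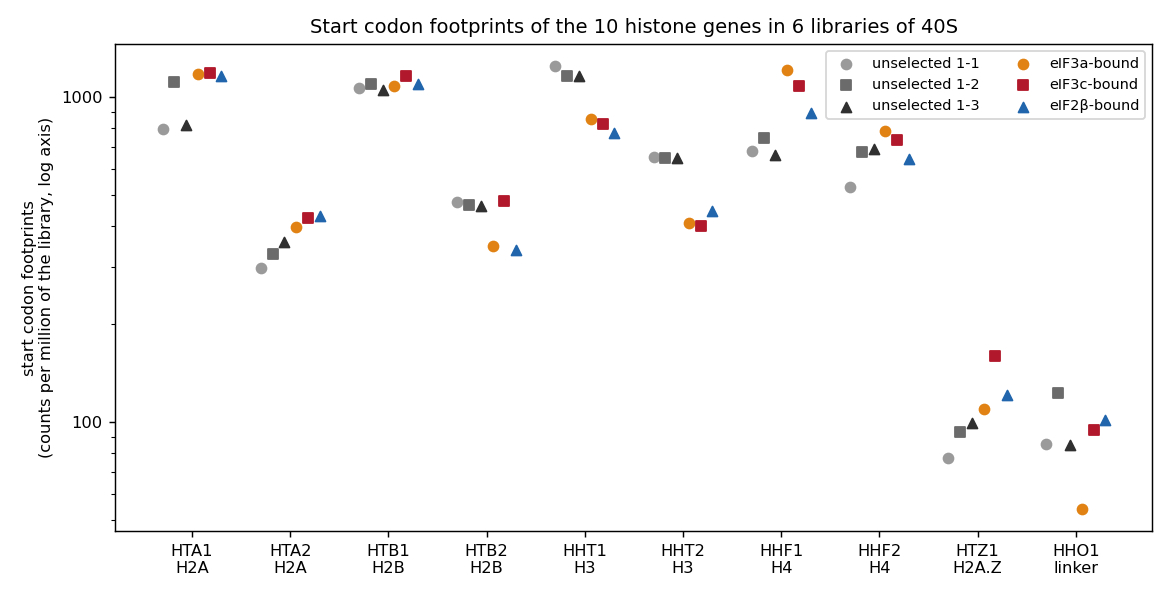
Points give start codon CPM (log axis) for each histone gene in the 3 unselected libraries (grey to black) and the 3 factor-bound libraries (colours). HHT1 and HHT2 are lower in every factor-bound library, and HHF1, HTA1, HTA2 and HTZ1 are higher.

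Set against each other within a library, which needs no scaling, H3 and H4 start codon counts changed order. The ratio of H3 to H4 was 1.57, 1.26 and 1.33 in unselected libraries 1-1, 1-2 and 1-3. It was 0.635 with eIF3a, 0.673 with eIF3c and 0.795 with eIF2β. Unselected libraries thus held more H3 than H4 start codon footprints, and factor-bound libraries fewer. Both divergent pairs moved in this direction. HHT1 over HHF1 went from 1.71 ± 0.145 to 0.780 ± 0.0827 and HHT2 over HHF2 from 1.04 ± 0.166 to 0.586 ± 0.0916 (SD, n = 3). The two-sided exact permutation test gave p = 0.1 for the H3 to H4 ratio, the smallest value that 3 libraries against 3 allow, and 0.16 after Benjamini-Hochberg adjustment over the 24 ratios tested. This ratio was chosen after the values were seen.

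In coding regions the H3 to H4 ratio was 1.30 ± 0.150 without selection and 0.854 ± 0.0936 with it. At stop codons it was 0.765 ± 0.159 and 0.720 ± 0.265, where the groups overlapped. In 3′ UTRs it went the other way, from 1.36, 1.25 and 1.31 in unselected to 1.82, 1.40 and 1.58 in factor-bound libraries, with no overlap and the same p as at start codons (exact permutation p = 0.1, adjusted 0.16). There the divergent pairs differed. HHT1 over HHF1 rose without overlap, from 0.879, 0.806 and 0.716 in unselected to 1.52, 0.889 and 1.63 in factor-bound libraries. HHT2 over HHF2 had 2.31, 1.94 and 2.025 against 2.25, 1.99 and 1.52, and these groups overlapped (exact permutation p = 0.5, adjusted 0.571). The 3′ UTR counts of HHT2 and HHF2 may also hold footprints of their neighbours. The start codon ratio of H2A to H2B was 0.708, 0.920 and 0.780 in unselected and 1.10, 0.979 and 1.11 in factor-bound libraries (exact permutation p = 0.1, adjusted 0.16). It was higher with selection in each strain, by the smallest step in the eIF3c strain.

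**Figure D3:**
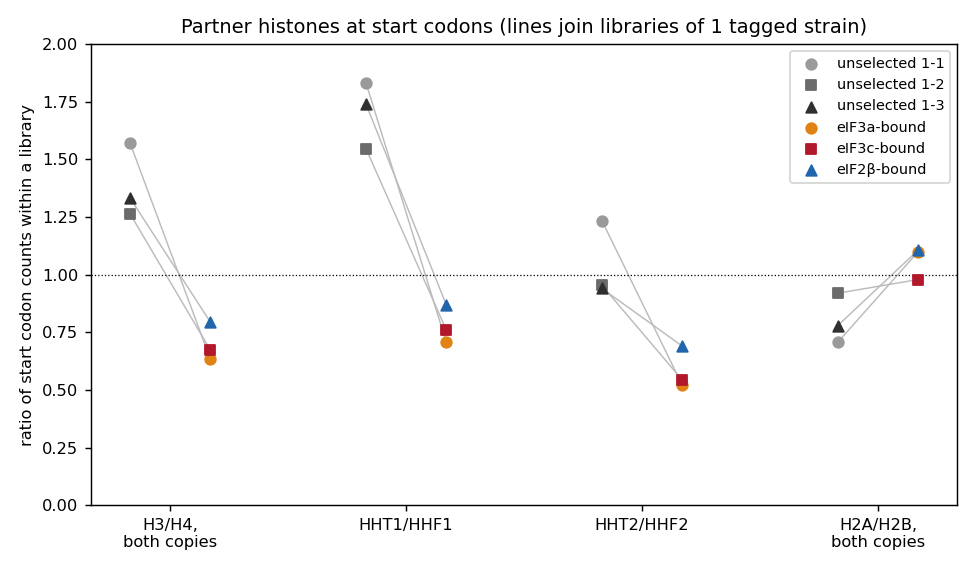
The y axis gives the ratio of start codon counts of partner histones within each library, with unselected libraries on the left and factor-bound libraries of the same tagged strain on the right, joined by lines. H3 over H4 lay at 1.26 to 1.57 without selection and at 0.635 to 0.795 with it, and H2A over H2B lay higher with selection in each strain.

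Of the 4 H2A and H2B genes, 0 passed at start codons without the block. HTA1 had 795, 1110 and 817 CPM without selection and 1175, 1182 and 1158 CPM with it, and HTA2 297, 329 and 358 CPM against 396, 425 and 430 CPM. Both H2A genes were higher in CPM in every factor-bound library, yet their folds against the median gene were 0.09 and 0.07 (SE 0.18 and 0.17). HTB1 had 1067, 1099 and 1046 CPM against 1081, 1163 and 1099 CPM, and its groups overlapped. HTB2 had 476, 466 and 462 CPM without selection and 348, 479 and 337 CPM with it. The eIF3c-bound library was level with the unselected ones and the other 2 were lower. Its fold was −0.54 (SE 0.18, adjusted p = 0.092), and −0.56 with the block, where it passed (adjusted p = 2.2e-04). With the block the start codon calls came to 4 lower and 1 higher of 10, where 16.2% of all genes were lower and 12.6% higher.

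The leaders of the histone mRNAs held very different shares of their footprints. Without selection the 5′ UTR held 50.9% ± 2.24 of the footprints of HTZ1, 21.7% ± 1.62 of those of HTA1, 15.6% ± 0.827 of HTA2 and 7.28% ± 1.23 of HTB1. It held 5.24% ± 1.03 of HHF1, 2.70% ± 0.341 of HHF2, 1.99% ± 0.247 of HTB2, 0.647% ± 0.106 of HHT1 and 0.479% ± 0.207 of HHT2 (SD, n = 3). The linker gene HHO1 had 0 leader counts among 883 footprints in the unselected libraries, which allows a share of up to 0.340%, and 1 leader count in the eIF3c-bound library. Of 1458 genes with at least 100 counts in every library, with a median of 6.50%, HTZ1 ranked 115th from the highest, HTA1 355th, HHT1 1299th and HHT2 1333rd. The length of these leaders was not used here, so a share is not a density.

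HTZ1 was the only histone with more footprints on its leader than on its start codon. Per start codon footprint it had 1.49, 1.65 and 1.64 leader footprints in unselected libraries, and 2.43 with eIF3a, 2.00 with eIF3c and 3.71 with eIF2β. Its leader had 115, 153 and 162 CPM (323, 244 and 306 counts) in unselected and 266, 319.5 and 448.5 CPM (905, 1419 and 2012 counts) in factor-bound libraries, with no overlap. HTA1, the next in order, had 306, 351 and 332.5 leader CPM in unselected and 557, 676 and 840 CPM in factor-bound libraries. In leader CPM 5 of the 9 histones tested lay higher in all factor-bound libraries, as did 63.0% of all genes tested.

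Among factor-bound footprints a larger share lay on the leader, as for many genes. The odds of a footprint lying in the 5′ UTR rather than in the rest of its own mRNA were compared with limma over 3955 genes with at least 20 counts in every library. They rose for 6 of 10 histones, where 39.5% of all genes tested rose, and the median log2 change was 0.94 for the histones and 1.04 for all genes. HHT2 led with a log2 change of 1.76 (SE 0.47, limma adjusted p = 0.00408), from 12, 12 and 6 leader counts in unselected and 33, 33 and 44 in factor-bound libraries. HTB1 (1.03), HTB2 (1.00), HTZ1 (0.99), HTA2 (0.99) and HTA1 (0.89) rose as well. HHT1 (0.67), HHF2 (0.58) and HHF1 (0.12) did not pass. HHO1 is among the 10 and in the median, but it had 0 or 1 leader counts in every library. Its change of 0.03 is set by the 0.5 added to the counts, so it says nothing about its leader. Without unselected 1-1 the calls fell to 3, since HTA2 (adjusted p = 0.0662), HTA1 (0.0792) and HTZ1 (0.0515) no longer passed.

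Against the leaders of other genes the histones did not stand apart. Of the 9 that had enough leader counts, all but HHO1, 0 passed edgeR's test in either direction, where 0% of 2036 genes were higher and 1.67% lower (217 genes had an unadjusted p under 0.05). The folds ran from −0.99 for HHT1 to 0.24 for HTZ1. With the block, HHT1 (−0.97, adjusted p = 0.0357) and HHF1 (−0.59, adjusted p = 0.026) fell, 2 of 9 where 5.16% of genes did. Without the block and scaled to the counts of all areas, both signs turned, to 0.28 for HHT1 and 0.65 for HHF1. DESeq2 called 0 of the 9.

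Start codon odds rose for 5 of 10 histones, where 43.5% of all genes rose, with a histone median of 0.58 on the log2 scale beside 0.81 for all genes. HHF1 had the largest change, from 67.3%, 64.6% and 66.2% of its footprints on the start codon to 78.75%, 82.75% and 81.9% (1.15, SE 0.22, limma adjusted p = 3.33e-04). HHO1 (1.03), HHF2 (0.83), HHT2 (0.74) and HTB2 (0.70) rose too. HTZ1 had a change of −0.45 that did not pass (adjusted p = 0.123), and HTA1 one of −0.06. The calls numbered 3 without unselected 1-2, 2 without unselected 1-3 and 3 without the eIF2β-bound library.

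In coding regions 7 of 10 histones had lower CPM in all 3 factor-bound than in all 3 unselected libraries, as did 66.1% of all genes tested, and the summed H4 genes lost less than the median gene. The coding region of HHF2 had 154, 238 and 224 CPM in unselected libraries, and 209.5 CPM with eIF3a, 136 CPM with eIF3c and 115.5 CPM with eIF2β. The eIF3a-bound value lay inside the unselected range and the others below it. Against the median gene, whose CPM fell by 1.07 on the log2 scale, the fold of HHF2 was 0.65 (SE 0.21, edgeR adjusted p = 0.0399). HTZ1 had 34.3, 35.7 and 36.0 CPM against 37.0, 20.7 and 26.3 CPM, at a fold of 0.75 (SE 0.25, adjusted p = 0.0416). Scaled to the counts of all areas, both signs turned, to −0.18 for HHF2 and −0.0902 for HTZ1, and DESeq2 did not call HTZ1 (adjusted p = 0.0572).

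These 2 of 10 histones were called higher, where 14.4% of 4797 genes were, and 0 of 10 lower, where 11.8% were. All 10 histones are in the shortest tertile of coding length (78 to 966 nt), in which 26.4% of genes were higher, 2.31% were lower and the median fold was 0.40. The histone median of 0.19 was below that of genes of like length. The H4 sum was higher by 0.61 (SE 0.20, adjusted p = 0.0369), and the H3 sum stood at −0.01 (SE 0.17, adjusted p = 0.964). HHF1 (0.57, adjusted p = 0.0628) passed with the block (0.54, adjusted p = 0.0151), where 3 of 10 histones and 19.9% of all genes were higher. Both single-gene calls were lost without unselected 1-1, 1-2 or 1-3, or without the eIF3a-bound or eIF2β-bound library (adjusted p from 0.0579 to 0.176), and the H4 sum was lost without any 1 unselected library or the eIF3a-bound one (0.066 to 0.149).

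**Figure D4:**
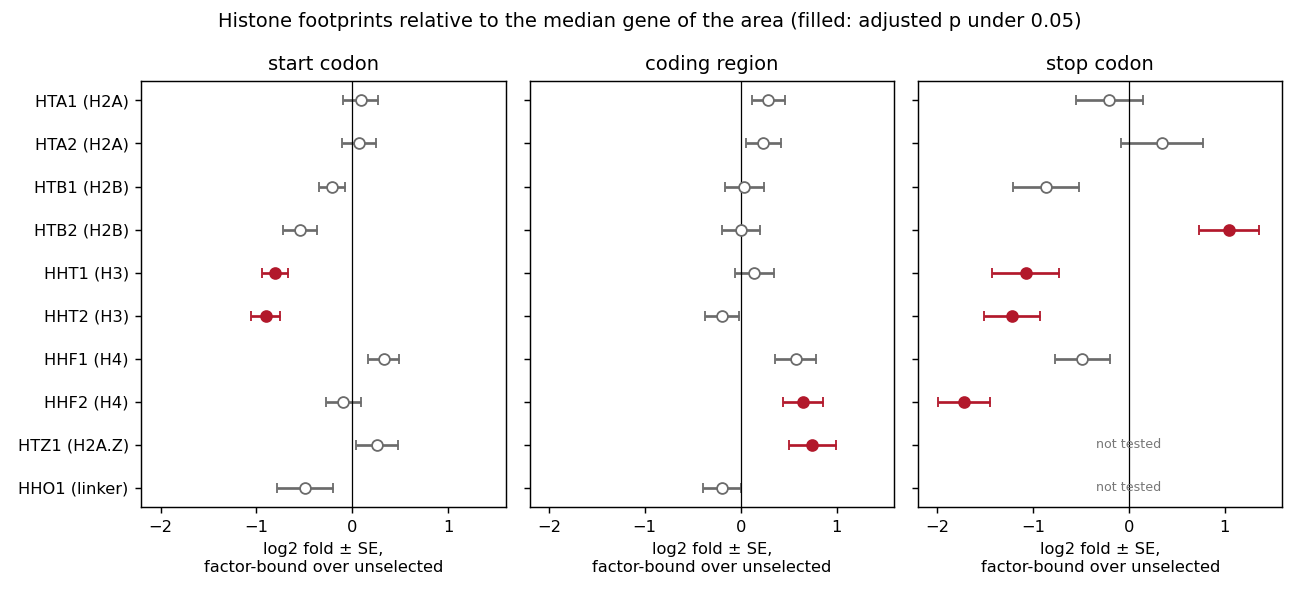
Points give the log2 fold of factor-bound over unselected 40S relative to the median gene of the area, bars its standard error (n = 3 against 3), and filled points passed an adjusted p of 0.05 in edgeR. The H3 genes are lowest at start codons, HHF2 and HTZ1 are called higher in coding regions relative to the median gene (their signs turn when scaled to all areas), and at stop codons HHF2 (−1.72) and HTB2 (1.05) are farthest apart.

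Already without selection, HHF2, HHT2 and HHF1 had more stop codon footprints than the other core histones. HHF2 had 0.0982, 0.0859 and 0.0966 stop codon footprints per start codon footprint in unselected libraries 1-1, 1-2 and 1-3, HHT2 0.0741, 0.0901 and 0.0604, and HHF1 0.0615, 0.0579 and 0.0470. HHT1, HTA1, HTA2, HTB1 and HTB2 lay between 0.0156 and 0.0325. By the share of their footprints at stop codons, HHF2 (6.18% ± 0.553) ranked 83rd, HHT2 (4.67% ± 0.932) 163rd and HHF1 (3.66% ± 0.519) 282nd of 1458 genes, whose median was 2.03%. HHT1 at 1.71% ± 0.477 ranked 882nd, so the 2 H3 genes differed.

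Most of these footprints were missing among factor-bound 40S. At its stop codon HHF2 had 145, 93 and 126 counts in unselected libraries and, despite their greater depth, 15, 19 and 17 in factor-bound ones. Per start codon footprint that is 0.00562, 0.00582 and 0.00590, a mean 0.0618 times that of the unselected libraries. The 3 factor-bound values were nearly equal, but each rests on 15 to 19 stop codon counts, so their closeness does not measure the spread between libraries. By its factor-bound share HHF2 ranked 741st of 1458 genes. All 8 histones tested at stop codons had lower CPM in every factor-bound than in every unselected library, as did 84.3% of all genes tested.

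Against the median gene at stop codons, HHF2 fell by 1.72 (SE 0.27, edgeR adjusted p = 5.3e-04), HHT2 by 1.22 (SE 0.29, adjusted p = 0.00884) and HHT1 by 1.08 (SE 0.35, adjusted p = 0.0389). HTB2 rose by 1.05 (SE 0.31, adjusted p = 0.0275) relative to a median gene whose CPM fell by 2.095 on the log2 scale, and its sign turned (−0.78) when the area was scaled to the counts of all areas. In CPM HTB2 had 13.6, 13.2 and 12.2 in unselected and 4.995, 7.21 and 6.69 in factor-bound libraries. Of the 8 histones with enough counts, 3 fell and 1 rose, where 10.3% of 497 genes fell and 14.3% rose. HTZ1 and HHO1, with 1 to 10 counts in every library, were not tested. The sums of both copies fell for H3 (−1.18, adjusted p = 0.00355) and H4 (−1.10, adjusted p = 0.00211) and stood at 0.01 for H2A and 0.16 for H2B. HHF2, HHT2 and both sums passed with each library left out. The call for HTB2 was lost with any 1 library left out (adjusted p from 0.0528 to 0.1), and that for HHT1 without any 1 except unselected 1-3 (0.0688 to 0.116) and by DESeq2 (0.074).

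The 2 H2B copies differed at stop codons. HTB2 counts there were 38, 21 and 23 in unselected and 17, 32 and 30 in factor-bound libraries, while those of HTB1 were 62, 34 and 40 against 7, 16 and 12. HTB1 supplied 62.0%, 61.8% and 63.5% of the H2B stop codon footprints without selection and 29.2%, 33.3% and 28.6% with it, so the groups of this share did not overlap. Within its own mRNA the stop codon odds of HTB2 changed by −0.54 (SE 0.47, limma adjusted p = 0.349). Those of HTB1 fell by 2.94 (SE 0.46, adjusted p = 1.26e-07).

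Over the 10 histones the stop codon odds fell for 8, all but HTB2 and HHO1, where 40.6% of all genes fell. The median change was −2.66 on the log2 scale, beside −1.59 for all genes, and HHF2 had the largest at −3.83 (SE 0.39, adjusted p = 4.41e-14). The all-gene values include genes with as few as 20 counts in a library, far fewer than the core histones had. Among the 1458 genes with at least 100 counts in every library, the median stop codon share was 2.03% without selection and 0.451% with it. The part of count depth in the difference between histones and all genes was not tested. The count stayed at 8 of 10 with each library left out.

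**Figure D5:**
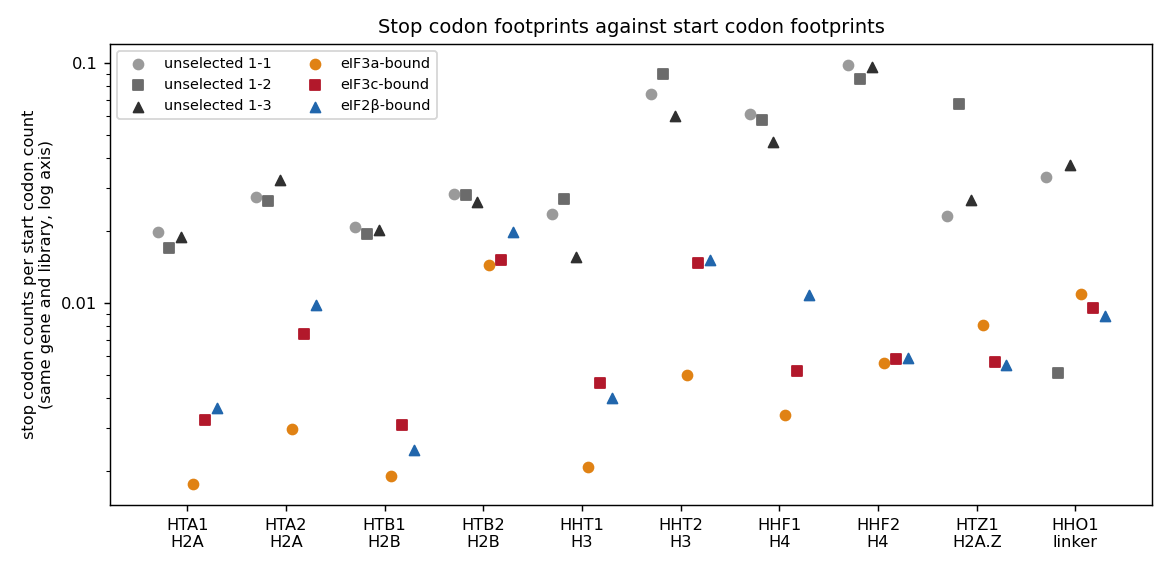
Points give stop codon counts per start codon count of the same gene and library (log axis), unselected in grey to black and factor-bound in colours. HHF2, HHT2 and HHF1 are the highest core histones without selection, and HTB2 changes least among the core genes. HHF2 drops to between 0.00562 and 0.00590, on 15 to 19 stop codon counts per library.

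Coding region odds fell for 7 of 10 histones, where 65.0% of all genes fell, at a median of −0.97 beside −1.33. The 3 that did not pass were HHF2 (−0.50), HHT2 (−0.52) and HHT1 (−0.40). HTA1 (−1.34) and HTZ1 (−1.34) fell most. HTB2 (−0.71, limma adjusted p = 0.0347) did not pass with the block (adjusted p = 0.0786).

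In 3′ UTRs 0 of 10 histones passed edgeR's test against other genes, where 4% of 725 genes were higher and 2.21% lower (0 by DESeq2). The folds ran from −0.41 (HTB1) to 0.59 (HTZ1), and 0 of the 10 had an unadjusted p under 0.05. In CPM 9 of 10 histones, all but HTZ1, were lower in every factor-bound library, as were 73.2% of all genes tested. Within their own mRNAs the 3′ UTR odds fell for 6 of 10, where 30.2% of genes fell, led by HHF1 (−1.95) and HTB1 (−1.77). HTB2, HHT1, HHT2 and HHO1 did not pass. The 3′ UTR shares without selection were highest for HTB2 at 7.84% ± 0.708 and HHT2 at 7.26% ± 0.830, which ranked 72nd and 101st of 1458 genes. HTA2 held 5.45% ± 0.430 and HHF2, whose neighbour KTR5 is the closest, 3.81% ± 0.332, while HHF1 and HHO1, with no neighbour within 300 nt, held 5.29% ± 0.289 and 4.91% ± 0.489.

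Summed over all areas, HTZ1 rose most. Its totals were 668, 469 and 584 counts (238.5, 294 and 309 CPM) in unselected and 1420, 2254 and 2698 counts (417, 507.5 and 601 CPM) in factor-bound libraries. Its fold was 1.12 (SE 0.19, edgeR adjusted p = 0.00368), relative to a median gene whose CPM fell by 0.31 on the log2 scale. The total mixes areas whose median genes moved apart, by 1.02 in leaders and −1.07 in coding regions. Within areas, the leader (0.24) and start codon (0.26) of HTZ1 did not pass (edgeR adjusted p = 0.753 and 0.506), and its coding region (0.75) did. The part of this mixture in the summed folds was not tested. HTA1 (0.66, adjusted p = 0.00767) and HHF1 (0.55, adjusted p = 0.0174) rose, and HHT2 (−0.62, adjusted p = 0.00651) and HHT1 (−0.37, adjusted p = 0.0428) fell. That is 3 of 10 higher, where 15.4% of 5114 genes were, and 2 of 10 lower, where 17.3% were. With the block HTA2 (0.46, adjusted p = 4.76e-04) rose and HTB2 (−0.28, adjusted p = 0.0313) fell as well, which made 4 of 10 higher and 3 of 10 lower, where 24.9% and 26.6% of all genes were. The call for HHT1 was lost with any 1 library left out, at adjusted p from 0.0569 to 0.155, and by DESeq2 (0.152). That for HHF1 was lost without unselected 1-1 (0.0647) or 1-3 (0.0684). HTZ1, HTA1 and HHT2 passed with each library left out. With both copies summed, H2A rose (0.60, SE 0.13, adjusted p = 0.00902), as did H4 (0.40, SE 0.13, adjusted p = 0.048), and H3 fell (−0.47, SE 0.11, adjusted p = 0.0121). The H2A sum passed with each library left out. The call for the sum of copies H4 was lost without any 1 library except the eIF2β-bound one, and that for the sum of copies H3 without unselected 1-1 (adjusted p = 0.0532) or 1-3 (0.0531).

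The 2 genes of a pair did not contribute alike, and their balance depended on the area. At start codons HTA1 supplied 69.5% to 77.1% of the H2A footprints over the 6 libraries, HTB1 69.2% to 76.5% of H2B, HHT1 63.6% to 67.6% of H3 and HHF1 49.1% to 60.6% of H4. Without and with selection, HTB1 supplied 69.2% to 70.2% and 70.8% to 76.5%, and HHF1 49.1% to 56.3% and 58.1% to 60.6%. These groups did not overlap, while those of HTA1 and HHT1 did. At stop codons HHF1 supplied 44.7%, 42.6% and 31.9% of H4 without selection. With it, HHF1 supplied 48.3%, 56.8% and 71.7%, from 14, 25 and 43 counts. In coding regions HTA1 supplied 57.1% to 60.5%, HTB1 48.2% to 56.6% and HHF1 46.4% to 55.3%, and HHT1 50.9% ± 3.12 without selection and 56.2% ± 6.95 with it (SD, n = 3). The split was thus closer to even in coding regions. The copies encode near-identical proteins, and no source used here says how footprints that match both were placed. The part of shared footprints in this evenness was not tested. In leaders HTB1 supplied 84.7% to 93.9% of the H2B footprints, and in 3′ UTRs 21.1% to 38.2%, so HTB2 was the larger source there.

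Each factor's library was divided by that of the same strain without selection, with 95% exact intervals that cover counting error only. HHT1 start codon CPM stood at 0.687 times (0.654 to 0.722) the unselected value with eIF3a, 0.714 times (0.675 to 0.755) with eIF3c and 0.671 times (0.636 to 0.708) with eIF2β. The H3 values were close for all 3 factors. HHF1 stood at 1.78 times (1.68 to 1.88) with eIF3a, 1.45 times (1.36 to 1.55) with eIF3c and 1.34 times (1.26 to 1.43) with eIF2β. Leader CPM of HTZ1 was 2.31 times (2.03 to 2.63), 2.09 times (1.82 to 2.40) and 2.77 times (2.46 to 3.14) the unselected value, and that of HTA2 1.89 times (1.63 to 2.21), 1.44 times (1.199 to 1.73) and 2.78 times (2.42 to 3.22). The eIF2β-bound library was highest for both leaders, and also in the 5′ UTR share of all genes' counts. That share was 9.09%, 9.57% and 9.89% in unselected libraries 1-1 to 1-3. It was 19.0% with eIF3a, 18.55% with eIF3c and 25.06% with eIF2β.

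Coding region CPM of the core histones was lowest against its own strain with eIF2β, and the coding share of all genes' counts fell most there too. That share was 28.1% without selection and 17.7% with it in the eIF3a strain. It was 31.1% and 16.1% in the eIF3c strain, and 32.65% and 11.9% in the eIF2β strain. HTA1 stood at 0.810 times with eIF3a, 0.631 times with eIF3c and 0.375 times with eIF2β, and HTB2 at 0.796, 0.489 and 0.277 times. HHF1 was at 1.15, 0.586 and 0.479 times. With 1 library per factor, differences between factors have no replicate check.

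The linker gene HHO1 had few footprints, 249 to 520 per library in all areas. Its start codon had 85.7, 123 and 84.6 CPM in unselected libraries, and 53.8 CPM with eIF3a, 94.6 CPM with eIF3c and 101 CPM with eIF2β. The groups overlapped, and the fold was −0.50 (SE 0.29, edgeR adjusted p = 0.317). Against its own strain the value was 0.628 times (0.515 to 0.764) with eIF3a, 0.770 times (0.648 to 0.917) with eIF3c and 1.199 times (0.999 to 1.45) with eIF2β. With the block HHO1 fell (−0.53, adjusted p = 0.00226), and its fold was 0.03 without the block when scaled to the counts of all areas.

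By the shares of the 5 areas, the genes most like the summed histones among 1448 non-members were MMF1, YRB1, PYP1, VMA3 and ARF1. Likeness was the percentage of footprints that would have to move between areas to match the histone profile, averaged over the 6 libraries, and these genes were at 2.94% to 4.09%, where the median gene was at 23.7%. The members themselves were at 7.70% (HTB1) to 14.9% (HTA1), except HTZ1 at 46.0%. All but HTZ1 were thus nearer than the median gene, though each is part of the sum. The nearest non-members were picked from 1448 by this same measure, so their lying nearer than any histone is no result about the histones.

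Of the proteins that handle histones, few mRNAs passed at start codons without the block. Of 11 histone chaperones tested, NAP1, which carries H2A with H2B, fell (−0.92, SE 0.19, edgeR adjusted p = 0.0231), as did CAC2, a subunit of the chromatin assembly factor (−2.12, SE 0.45, adjusted p = 0.0253). NAP1 start codon counts were 326, 187 and 164 in unselected and 247, 296 and 287 in the deeper factor-bound libraries. The list median was −0.19, and 2 of 11 were lower, where 5.12% of all genes were. Of 5 other nucleosome and high-mobility-group genes, HMO1 fell (−1.04, SE 0.25, adjusted p = 0.0405). Of 8 regulators of histone genes tested, 0 passed in either direction by edgeR with or without the block. With the block 3 of 11 chaperones were higher and 3 lower, where 12.6% of all genes were higher and 16.2% lower. SPT6, SPT16 and ASF1 rose, with folds of 0.81, 0.62 and 0.66. NAP1 (−0.92), CAC2 (−2.06) and MSI1 (−0.77) fell.

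In coding regions 2 of 12 chaperones were higher, CHZ1 (0.77), which carries H2A.Z with H2B, and HIF1 (1.01), and 4 were lower, the H3 and H4 chaperones ASF1 (−1.49) and RTT106 (−0.89), SPT6 (−1.31) and NAP1 (−0.84). Of all genes tested there 14.4% were higher and 11.8% lower. Of 11 regulators the H3 acetyltransferase RTT109 (1.48) was higher, and MBP1 (−1.70), a cell cycle transcription factor, and HIR3 (−1.09), a subunit of the histone repressor complex, were lower. Of the 4 other nucleosome and high-mobility-group genes tested 0 passed, and NHP6A did with the block (0.56), as did YTA7 among the regulators (−0.88). Over all areas 4 of 12 chaperones fell, SPT6 (−0.75), NAP1 (−0.88), CAC2 (−1.35) and RTT106 (−0.99), as did 4 of 11 regulators, HIR3 (−1.50), YTA7 (−1.24), MBP1 (−0.98) and HIR2 (−0.69), where 17.3% of all genes fell. CSE4, the centromeric H3 variant, rose (0.57, SE 0.17, edgeR adjusted p = 0.0294), and HMO1 fell (−0.70). With the block SPT16 (0.32) and NHP6B (0.30) rose too. In leaders CHZ1 was the 1 of 6 chaperones to pass (−2.60, SE 0.43, adjusted p = 0.0109), from 17, 20 and 19 counts in unselected and 14, 6 and 18 in factor-bound libraries, where 1.67% of all genes tested were lower. At stop codons and in 3′ UTRs at most 2 genes of each of these lists had enough counts to test, and 0 passed.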

How the data were processed

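Counts per gene were deposited by the authors as whole numbers, not normalized, for 5 areas of each transcript in 6 libraries of 40S footprints. The other 10 of 16 samples and the other files were not used here. Build R64, TopHat2 2.1.0, Bowtie2 2.2.6, Bowtie 1.2.2 and CASAVA 1.8 appear in the submitters' processing notes. The sources used here give neither strand nor the treatment of duplicates and of multiply mapping reads, nor how areas were assigned, so counts of near-identical copies and of neighbouring genes are uncertain. The table header writes eIF2α where the labels have eIF2β. Only 1 selected 40S sample carries number 1-3, so that column was read as eIF2β. Of 5818 gene IDs, 5776 matched the RefSeq table of R64, and 75 genes had no count.

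Each area was tested with edgeR 4.0.16 (R 4.3.3): filterByExpr, TMM within the area and the quasi-likelihood test of 3 factor-bound against 3 unselected libraries, adjusted over all genes tested (Benjamini-Hochberg, threshold 0.05). Standard errors were derived as |log2 fold|/√F. Area odds, log2 of area count + 0.5 over the count in the other areas + 0.5, were tested with limma 3.58.1 on genes with at least 20 counts in every library, with a variance trend over the smaller count, a choice made on simulated data. Single ratios were compared by exact permutation. Software was Python 3.11.15 with pandas 2.3.3, NumPy 2.4.6, SciPy 1.17.1 and matplotlib 3.10.9. Intervals and the limit for a count of 0 (3 counts) cover counting error only. Alternatives were DESeq2 1.42.0, its size factors in edgeR, no filter, scaling to all areas, a pseudocount of 2, at least 100 counts, the replicate block and leaving out each library.

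Libraries that share a number (1-1, 1-2 or 1-3) come from 1 tagged strain, so the numbers pair them. Deviations from the group means correlated within each number, from 0.428 to 0.589 at start codons and at 0.148 or higher in every area. No label describes separate cultures. The p-values therefore reflect how much these libraries vary, which may be technical variation. The members, the lists and the tests were chosen with earlier results of these data known. Every member is reported in every area, and of the 3 lists of non-members each gene past the threshold in the counts test is named. VPS75 and HPC2, of the lists of chaperones and regulators, were not analysed here.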

Additional observations from a re-analysis of the deposited data

How the results depend on the processing

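Scaling each area to the counts of all areas moved the median gene on the log2 scale. It moved by 1.27 in 5′ UTRs, 0.52 at start codons, −0.82 in coding regions, −1.82 at stop codons and −0.98 in 3′ UTRs. The calls of histones became 6 higher in 5′ UTRs, 4 higher and 0 lower at start codons, and 0 higher and 5 lower in coding regions. They became 0 higher and 7 lower at stop codons, and 5 lower in 3′ UTRs. The share of all genes called under this scaling was not counted, so these calls cannot be read as particular to histones. HHT1 (−0.29) and HHT2 (−0.38) stayed negative at start codons without passing. Of the folds that passed before or after this scaling, signs turned in 5′ UTRs for HTA2 (1.34), HTB1 (1.22), HHF2 (0.82) and HHT2 (1.12), in coding regions for HTB2 (−0.81), HHT1 (−0.67), HTB1 (−0.76), HHF2 (−0.18) and HTZ1 (−0.0902), at stop codons for HTB2 (−0.78) and HTA2 (−1.44), and in 3′ UTRs for HHF2 (−1.04). Folds that passed in neither turned in 5′ UTRs for HTB2 (0.71), HHF1 (0.65) and HHT1 (0.28), at start codons for HTB1 (0.31), HHF2 (0.44) and HHO1 (0.03), in coding regions for HTA2 (−0.57), HHF1 (−0.23) and HTA1 (−0.53), and in 3′ UTRs for HTA2 (−0.88), HHT1 (−0.65), HTA1 (−0.87), HTZ1 (−0.45) and HHO1 (−1.06). These changes follow the shift of the median gene.

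With the replicate block, calls in 5′ UTRs became 2 lower, and those at start codons 1 higher and 4 lower, and 1 copy sum (H4) fell in 5′ UTRs (−0.55, adjusted p = 0.0265). In the odds of 3′ UTRs HTB2 passed too (−0.95, adjusted p = 0.0192). Beside the calls given in the report, the block changed no other call. DESeq2 gave 1 higher in coding regions and 1 lower over all areas, where the size factors alone or no filter also gave 1 lower, and no filter gave 0 higher at stop codons. HTA2 passed over all areas with DESeq2 (0.52, adjusted p = 0.0412) and its size factors in edgeR. For DESeq2, its size factors and no filter, the share of all genes called was not counted. The mean of gene shares in place of summed counts gave a difference of 6.79 percentage points at start codons, against 3.87. The causes were not tested.

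Leaving out each library in turn, counts of histone calls ranged from 0 to 2 lower at start codons, 0 to 3 higher in coding regions, 0 to 0 higher and 2 to 3 lower at stop codons, and 2 to 3 higher and 1 to 1 lower over all areas. Copy sums ranged from 0 to 1 higher in coding regions, and 1 to 2 higher and 0 to 1 lower over all areas. Odds ranged from 3 to 6 higher in 5′ UTRs, 2 to 6 higher and 0 to 1 lower at start codons, 5 to 8 lower in coding regions, 8 to 8 lower at stop codons and 4 to 8 lower in 3′ UTRs. The share of all genes called with a library left out was not counted, so these ranges cannot be read as particular to histones. The H3 to H4 ratio at start codons, factor-bound over unselected, was 0.505 and ranged from 0.471 to 0.540, with 0.457 for HHT1 over HHF1 and 0.562 for HHT2 over HHF2. Stop codon counts of HTZ1 and HHO1, at 1 to 10, limit what can be said of them, and 3 libraries a group, with 1 for each factor, limit every comparison.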
